A study of Mus musculus with 2 samples.

Results

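Toll-like receptors are pattern-recognition receptors of innate immune cells, and the genes described here are 5 of these receptors (*Tlr2*, *Tlr4*, *Tlr7*, *Tlr9*, and *Tlr13*), their shared adaptor *Myd88*, and the co-receptor genes *Cd14* and *Ly96*. These 8 genes were chosen by name and function from the 20299 genes of the data, with earlier results of these data known. All 8 had UMIs (unique molecular identifiers, each marking 1 captured transcript) in both libraries. TLR2 and TLR4 sit on the cell surface and bind microbial lipoproteins and lipopolysaccharide, respectively, and TLR4 needs MD-2, the product of *Ly96*, to bind its ligand, which CD14 delivers. TLR7, TLR9, and TLR13 sit in endosomes and bind single-stranded RNA, unmethylated CpG DNA, and bacterial ribosomal RNA. All 5 receptors signal through MYD88, and in injured kidney these genes are known from resident and infiltrating macrophages, neutrophils, and, for TLR4, also from endothelial and other parenchymal cells.

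Kidney cells of mice with nephrotoxic serum nephritis (NTN), an immune complex–mediated glomerular injury, were profiled by droplet-based 3′ scRNA sequencing (chemistry version 3.1) in 1 WT library and 1 *Vsir*-/- library. *Vsir* encodes VISTA, an immune checkpoint molecule, and the comparison asks how its absence alters the immune cells of the injured kidney. Both groups were C57BL/6 mice of 8 weeks that received 200 μg of sheep IgG in complete Freund's adjuvant and, 4 days later, sheep nephrotoxic serum at 2 μL per g by the labels, whereas the study's methods give a larger dose. Digestion of the kidneys used liberase at 0.2 mg/ml for 30 minutes at 37°C. No untreated kidney was profiled, the number of mice per library is not given in the sources used here, and the *Vsir*-/- line lacks the gene in all cells.

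Each genotype thus had 1 library with no replicate, so no test between genotypes was possible, and every ratio below compares 2 libraries. The intervals given are 95% intervals that cover counting error only, and a level is in UMIs of a gene per 1000000 UMIs of the same cells (CPM). *Vsir* itself had 4278 UMIs in the WT library and 8 in the *Vsir*-/- library, that is, 130 and 0.430 CPM. The WT library held 5470 cells and 32799550 UMIs, and the *Vsir*-/- library held 1844 cells and 18601189 UMIs, with medians of 4726.5 and 6673 UMIs per cell. The libraries stood apart in 2 ways that touch the results below. The labels describe sorted CD45+ cells for WT and all kidney cells for *Vsir*-/-, whereas the study's methods describe a CD45+ sort for both genotypes, and *Ptprc*, which encodes CD45, was detected in 94.2% and 73.6% of cells. *Xist* had 0 and 16405 UMIs and 4 Y-linked genes together 5175 and 0, although the methods describe male mice, so that sex and genotype cannot be told apart. The 5 cell barcodes that the libraries shared did not have identical counts.

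The authors' clusters were used as deposited. The 4 clusters at the center of the description are R1, M2-like R2, Other R2, and neutrophils. R1 are the kidney-resident macrophages (116 WT and 237 *Vsir*-/- cells). M2-like R2 (456 and 168) and Other R2 (188 and 131) belong to R2, the authors' class of infiltrating macrophages, and there were 524 and 158 neutrophils. Complement genes marked R1, with *C1qa* at 4570.3 CPM in WT and 5366 CPM in *Vsir*-/- cells. The 4 M2-like markers summed to 609 CPM in WT and 730.1 CPM in *Vsir*-/- M2-like R2 cells. The sums were 124 and 365 CPM in R1, 108 and 38.8 CPM in Other R2, and 301 and 494 CPM in neutrophils. In M2-like R2 the sum was led by *Chil3* at 595 and 489 CPM, whereas *Arg1* was at 10.0 and 193 CPM and *Mrc1* at 4.10 and 46.6 CPM. The single markers did not all set M2-like R2 apart. *Mrc1* was at 112 and 302 CPM in R1, and *Chil3* at 289 and 494 CPM in neutrophils. *Retnla* was at 54.3 CPM in *Vsir*-/- R1 against 1.19 CPM in *Vsir*-/- M2-like R2. Other R2 cells had more of the 5 patrolling monocyte markers, at a sum of 2702 and 3055 CPM against 903 and 847 CPM in M2-like R2. Their *Ccr2* level was 57.8 and 9.06 CPM against 912 and 931 CPM. Transcripts of other cells lay in the 4 clusters unevenly. The 6 neutrophil markers summed to 1744 to 4337 CPM in the 3 WT macrophage clusters and to 132 to 244 CPM in the *Vsir*-/- ones, all 4 B cell markers were detected there in WT at a sum of 319 to 1188 CPM against 7.8 to 56.2 CPM, and the 8 kidney tubule markers summed to 3.1 to 9.3 CPM in WT against 887 to 1420 CPM. The 5 endothelial markers summed to 0 CPM in WT and 899 CPM in *Vsir*-/- R1 cells, and to at most 2.05 CPM in WT and 58.5 to 431 CPM in *Vsir*-/- cells of the other 3 clusters. The part of these transcripts in the ratios below was not tested.

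Most UMIs of the receptors and co-receptors lay in macrophages and neutrophils, except those of *Tlr4* and *Ly96* in the *Vsir*-/- library. The 3 macrophage clusters and the neutrophils held 93.8% of the *Tlr2* UMIs, 79.0% of the *Tlr4* UMIs, 96.0% of the *Tlr13* UMIs, and 97.4% of the *Cd14* UMIs of the WT library. In the *Vsir*-/- library the shares were 85.7%, 38.8%, 91.8%, and 89.3%. In the *Vsir*-/- library, 56.9% of the 232 *Tlr4* UMIs (95% CI, 50.3% to 63.4%) lay in the clusters named non–EM-like CD4+ T cells and proliferating cells. These 2 clusters held 1.61% of the 186 WT *Tlr4* UMIs. *Ly96* had 44.2% of its 421 *Vsir*-/- UMIs in the same 2 clusters, against 4.75% of its 379 WT UMIs. The macrophages and neutrophils held 43.5% and 70.4% of the *Ly96* UMIs of the *Vsir*-/- and WT libraries. Of the UMIs of all genes, the same 2 clusters held 9042333 of 18601189 in the *Vsir*-/- library and 6466397 of 32799550 in WT. The part of this difference in the *Tlr4* and *Ly96* shares was not tested. By level, *Ly96* of the *Vsir*-/- library was still at its highest values in the macrophages and neutrophils, among clusters with at least 50 cells. These ran from 46.2 CPM in R1 to 27.0 CPM in neutrophils. Proliferating cells had 24.5 CPM, with an interval that overlapped that of neutrophils, and non–EM-like CD4+ T cells had 16.7 CPM. In WT *Myd88* was spread more widely than any receptor, with 64.6% of its UMIs in the macrophages and neutrophils. At full depth, 14.7% of WT non–EM-like CD8+ T cells held a UMI, whereas 165 of 456 WT M2-like R2 cells held none. The median depths of these cells were 7117 and 9699 UMIs.

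**Figure D1:**
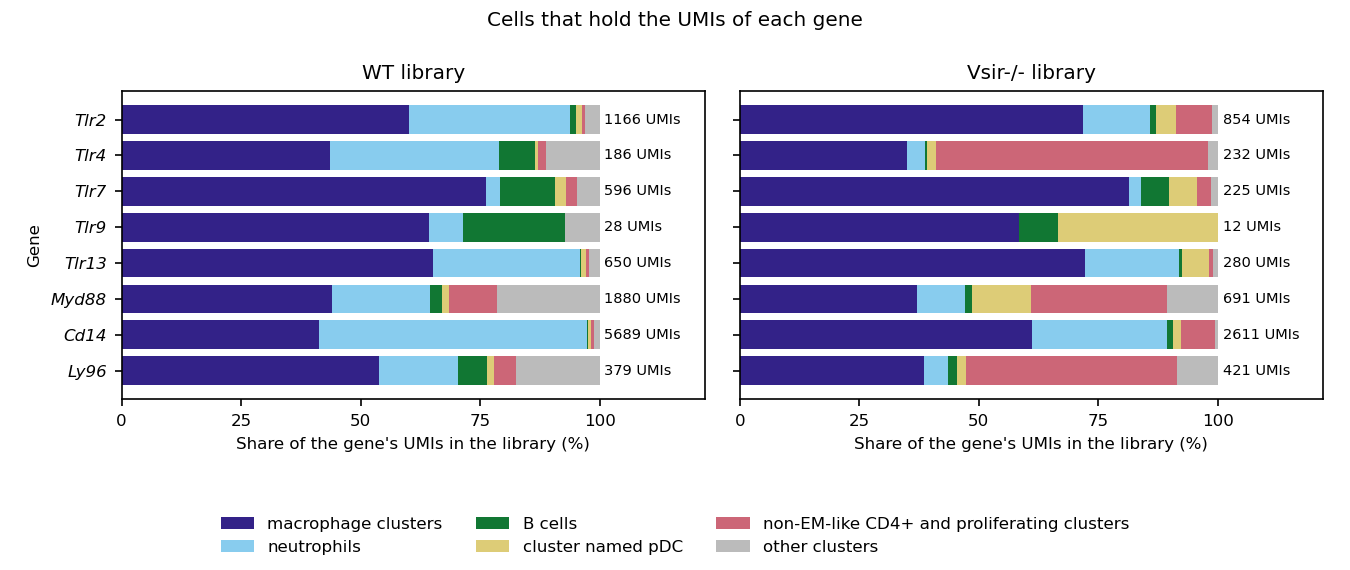
Share of each gene's UMIs by class of cells in the WT and *Vsir*-/- libraries (x axis, %; 1 bar a gene; total UMIs beside each bar). Macrophages and neutrophils hold most UMIs of the receptors, except that 56.9% of the *Tlr4* UMIs of the *Vsir*-/- library lie in the non–EM-like CD4+ and proliferating clusters, which also hold 44.2% of its *Ly96* UMIs. These 2 clusters hold 9042333 of the 18601189 UMIs of all genes in that library.

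**Figure D2:**
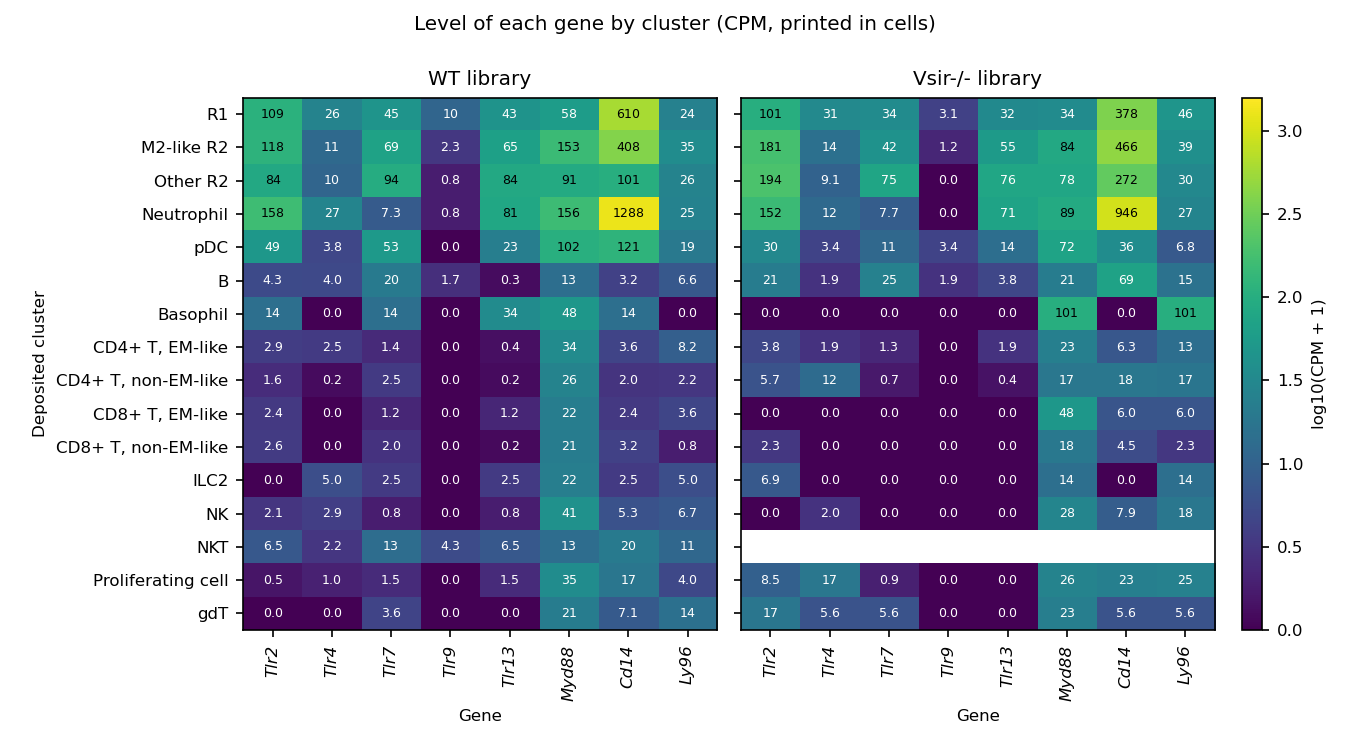
CPM of the 8 genes (columns) in the deposited clusters (rows) of the WT and *Vsir*-/- libraries, with color on a log10(CPM + 1) scale and the CPM printed. The row without values has no *Vsir*-/- cells; *Cd14* in neutrophils has the highest values, 1288 and 946 CPM.

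Large ratios of the 8 genes were counted beside those of all genes, although so few genes allow only a coarse comparison. A gene entered this count with at least 20 UMIs in the cluster over both libraries, which 7 of the 8 genes passed in each of the 4 clusters, and *Tlr9* passed in none. In R1 macrophages, 0 of the 7 genes were 2-fold or more higher in *Vsir*-/- cells and 0 were 2-fold or more lower, against 13.6% and 8.78% of all 8862 genes counted. In M2-like R2 macrophages the numbers were again 0 and 0, against 8.11% and 7.61% of 9751 genes. In Other R2 macrophages 2 of the 7 genes (28.6%), *Tlr2* and *Cd14*, were 2-fold or more higher and 0 lower, against 6.71% and 9.52% of 7555 genes. In neutrophils 0 were higher and 1 (14.3%), *Tlr4*, was lower, against 9.99% and 10.6% of 7197 genes. The median log2 ratio of *Vsir*-/- to WT over the 7 genes was −0.41 in R1, 0.15 in M2-like R2, −0.12 in Other R2, and −0.18 in neutrophils, where all genes had medians of −0.01, 0.01, −0.06, and −0.06. The medians hide genes that differed in opposite directions.

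By the less strict measure of a ratio whose counting interval excludes 0 on the log2 scale, 1 gene was higher (*Ly96*) and 2 were lower (*Myd88* and *Cd14*) in R1, against 18.9% and 16.2% of all genes. In M2-like R2, 2 were higher (*Tlr2* and *Cd14*) and 2 lower (*Tlr7* and *Myd88*), against 16.6% and 16.7%. In Other R2, 2 were higher (*Tlr2* and *Cd14*) and 0 lower, against 13.6% and 15.6%. In neutrophils 0 were higher and 3 lower (*Tlr4*, *Myd88*, and *Cd14*), against 13.9% and 17.3%. With 7 genes a cluster, these shares are too coarse to set the genes apart from the background.

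**Figure D3:**
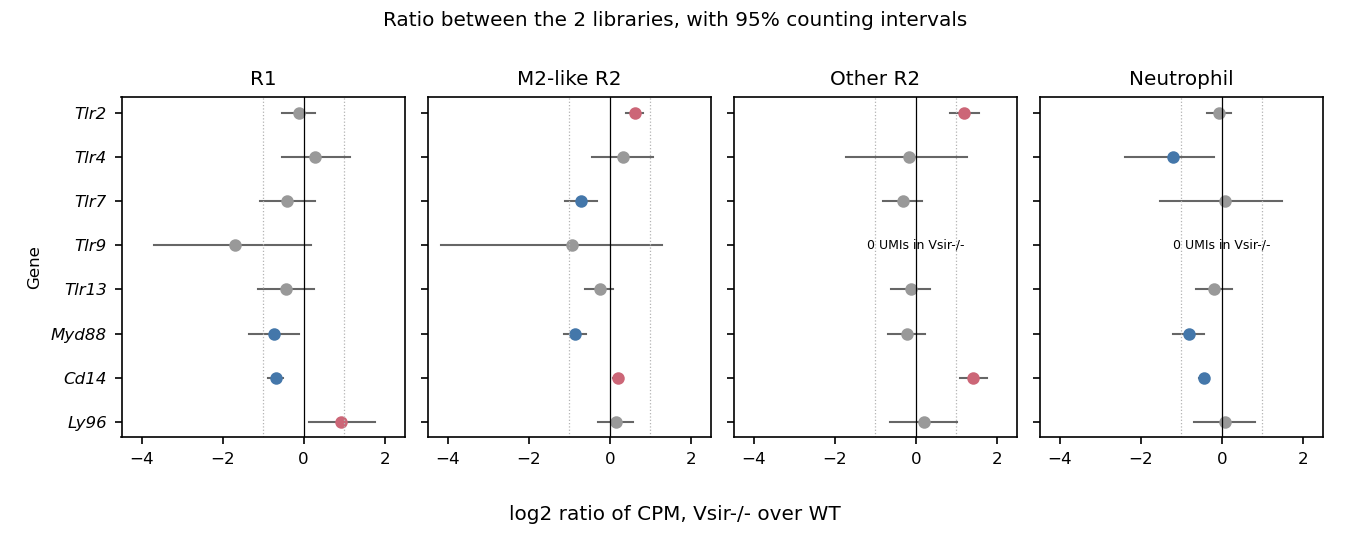
Log2 ratio of CPM, *Vsir*-/- over WT, of the 8 genes in R1, M2-like R2, and Other R2 macrophages and in neutrophils; bars are 95% counting intervals, red and blue points have intervals above and below 0, and dotted lines mark 2-fold. *Cd14* lies below 0 in R1 and neutrophils and above 0 in both R2 clusters.

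Among the surface receptors, *Tlr2*, which encodes the lipoprotein receptor, was the one with ratios above counting error in the R2 macrophages. In Other R2 it was at 84.3 CPM in WT (108 UMIs) and 194 CPM in *Vsir*-/- cells (150 UMIs), a log2 ratio of 1.20 (95% CI, 0.84 to 1.57). In M2-like R2 it was at 118 and 181 CPM, a log2 ratio of 0.62 (0.41 to 0.83). In R1 the levels were 109 and 101 CPM, and in neutrophils 158 and 152 CPM, and both intervals included 0. The order of the clusters therefore differed between the libraries. In WT cells neutrophils had the highest *Tlr2* level, above M2-like R2, whereas in *Vsir*-/- cells Other R2, M2-like R2, and neutrophils had overlapping intervals and R1 lay below them.

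In cells thinned to 1000 UMIs each, so that depth was equal, a *Tlr2* UMI was present in 8.89% of 180 WT and 20.5% of 127 *Vsir*-/- Other R2 cells, and before thinning in 37.8% and 52.7%. In the same measure non–EM-like CD8+ T cells, which should lack the gene, had 0.303% of 659 WT cells, at a median depth of 7117 UMIs against 5210 UMIs in WT Other R2. The Other R2 ratio shrank to 0.69 when each cell had equal weight, and to 0.62 without cells holding a B cell transcript. That B cell transcripts were in WT Other R2 cells is a measured difference between the libraries, with *Cd79a* at 624 and 1.29 CPM. Of the Other R2 cells, 38 of 131 *Vsir*-/- and 17 of 188 WT cells held 2 or more *Tlr2* UMIs, and 31 and 54 held 1. The most in a single cell was 7 and 6 UMIs.

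The promoter of *Tlr2* is shown because the ratios of this gene exceeded counting error in both R2 clusters. Of the 8 genes, 4 (*Tlr2*, *Tlr9*, *Tlr13*, and *Myd88*) had a promoter in the RefSeq table of GRCm38.p6, which holds 250 bases before and 50 after the gene start. The window of *Tlr2*, on the minus strand at chr3:83841559-83841858, reads 5′ to 3′ as follows, with the GC boxes (GGGCGG, searched on both strands) in capitals.
Tlr2: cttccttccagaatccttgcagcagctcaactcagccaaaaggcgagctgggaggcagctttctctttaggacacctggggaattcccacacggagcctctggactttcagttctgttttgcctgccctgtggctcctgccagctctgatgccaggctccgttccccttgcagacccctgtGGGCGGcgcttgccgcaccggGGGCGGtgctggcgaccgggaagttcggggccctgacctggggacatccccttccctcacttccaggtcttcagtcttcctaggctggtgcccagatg
It held 2 GC boxes, a motif present in 35.9% of 27025 promoters of the same length. The letters searched for the other motifs had no match in it.

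*Tlr4*, the lipopolysaccharide receptor, was sparse in all 4 clusters, and of these its ratio exceeded counting error in neutrophils. There it was at 26.6 CPM in WT (66 UMIs) and 11.6 CPM in *Vsir*-/- cells (9 UMIs), a log2 ratio of −1.20 (95% CI, −2.39 to −0.19). At equal depth 3.78% of 503 WT and 1.31% of 153 *Vsir*-/- neutrophils held a UMI, with intervals that overlapped (2.29% to 5.84% and 0.159% to 4.64%). Before thinning the shares were 11.8% and 5.06%.

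In macrophages the *Tlr4* levels of the libraries lay close together. R1 had 25.9 and 31.2 CPM, M2-like R2 had 11.4 and 14.3 CPM, and Other R2 had 10.1 and 9.06 CPM in WT and *Vsir*-/- cells, and all 3 intervals included 0. With 7 to 50 UMIs a library and cluster, the intervals were wide, from −1.73 to 1.27 in Other R2. R1 was thus the macrophage cluster with the highest *Tlr4* value in both libraries. Its interval did not overlap that of M2-like R2 in WT (15.4 to 40.9 against 8.45 to 15.0 CPM) or in *Vsir*-/- cells (23.2 to 41.2 against 9.18 to 21.3 CPM). In WT it overlapped that of Other R2 (5.40 to 17.4 CPM), whereas in *Vsir*-/- cells Other R2 lay below it (3.64 to 18.7 CPM).

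The endosomal receptor *Tlr7*, which recognizes single-stranded RNA, was lower in the *Vsir*-/- library in M2-like R2 macrophages. Its level was 69.0 CPM in WT (303 UMIs) and 42.4 CPM in *Vsir*-/- cells (71 UMIs), a log2 ratio of −0.70 (95% CI, −1.10 to −0.33). R1 had 44.6 and 33.7 CPM and Other R2 had 93.7 and 75.1 CPM, both with intervals that included 0. Other R2 had the highest *Tlr7* level of all clusters with at least 50 cells in both libraries. Neutrophils had little *Tlr7*, at 7.26 and 7.72 CPM, although their *Tlr13* level was close to that of the R2 macrophages.

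B cells, in which TLR7 is also known to act, had 19.5 CPM of *Tlr7* in WT (68 UMIs) and 24.8 CPM in *Vsir*-/- cells (13 UMIs), with an interval of the log2 ratio from −0.64 to 1.21. The cluster named pDC had 52.9 CPM in 21 WT cells and 11.0 CPM in 86 *Vsir*-/- cells, from 14 and 13 UMIs. This cluster held transcripts of conventional dendritic cells in both libraries beside the plasmacytoid marker *Siglech* (200 and 205 CPM), and their mix differed, with *Xcr1* at 11.3 and 190 CPM and *Cd209a* at 412 and 375 CPM. The part of this mix in the *Tlr7* ratio was not tested.

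*Tlr13*, the receptor for bacterial ribosomal RNA, was at a lower value in the *Vsir*-/- library in all 4 clusters, but each difference lay within counting error. R1 had 43.2 and 31.9 CPM, and M2-like R2 had 65.3 and 54.9 CPM. Other R2 had 83.5 and 76.4 CPM, and neutrophils had 80.6 and 70.8 CPM, so that Other R2 and neutrophils led in both libraries with overlapping intervals. The log2 ratios ran from −0.44 in R1 to −0.13 in Other R2. Outside the 4 clusters *Tlr13* was near 0 in lymphocytes, with 1 UMI in 969 WT B cells and 1 in 659 WT non–EM-like CD8+ T cells. The cluster named pDC had 22.7 CPM in WT (6 UMIs) and 13.5 CPM in *Vsir*-/- cells (16 UMIs), and 25 WT basophils had 34.4 CPM (5 UMIs).

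*Tlr7* and *Tlr13* lie on the X chromosome, and the libraries differed in sex-linked transcripts. X-linked genes other than *Xist* had a median log2 ratio of −0.01 in R1, 0.02 in M2-like R2, 0.02 in Other R2, and −0.08 in neutrophils, beside the medians of −0.01, 0.01, −0.06, and −0.06 over all genes. The share of X-linked genes 2-fold or more lower was 9.84%, 2.96%, 5.19%, and 8.54% in these clusters, beside 8.78%, 7.61%, 9.52%, and 10.6% of all genes. The effect of sex on either receptor cannot be told apart from that of genotype.

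*Tlr9*, the receptor for CpG DNA, was at the limit of detection. It had 28 UMIs in the WT library and 12 in the *Vsir*-/- library. R1 macrophages held 7 and 5 of them (10.1 and 3.12 CPM), M2-like R2 held 10 and 2, and WT and *Vsir*-/- B cells held 6 and 1. The cluster named pDC, the cell type in which TLR9 is best known, had no UMI in 21 WT cells, where 3 UMIs would be 11.3 CPM. It had 4 UMIs in 86 *Vsir*-/- cells (3.38 CPM). No direction can be read at this depth, and the interval of the R1 ratio ran from −3.69 to 0.18.

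In their promoter windows, *Tlr9* held 2 matches to the PU.1 core (GAGGAA, in 28.3% of promoters) and 1 to the AP-1 motif (TGANTCA, in 7.93%), and *Tlr13*, at chrX:106143025-106143324 on the plus strand, held 1 PU.1 core. PU.1 is a transcription factor of myeloid and B cells. The window of *Tlr13* is shown because, of the 5 receptors, it had the largest share of its UMIs in macrophages and neutrophils in both libraries, and the match is in capitals.
Tlr13: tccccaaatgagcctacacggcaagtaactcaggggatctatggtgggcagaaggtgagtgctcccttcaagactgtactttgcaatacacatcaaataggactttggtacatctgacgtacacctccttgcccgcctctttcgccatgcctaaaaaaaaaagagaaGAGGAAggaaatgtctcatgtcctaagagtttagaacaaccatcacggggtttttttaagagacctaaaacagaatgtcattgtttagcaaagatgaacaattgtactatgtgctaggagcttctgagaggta

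The adaptor *Myd88*, through which all 5 receptors signal, was lower in the *Vsir*-/- library in 3 of the 4 clusters by more than counting error. M2-like R2 had 153 CPM in WT (671 UMIs) and 84.2 CPM in *Vsir*-/- cells (141 UMIs), a log2 ratio of −0.86 (95% CI, −1.13 to −0.60). Neutrophils had 156 and 88.8 CPM, a log2 ratio of −0.82 (−1.21 to −0.44). R1 had 57.6 and 34.3 CPM, a log2 ratio of −0.74 (−1.36 to −0.12), and this ratio turned to 0.46 in cells thinned to 1000 UMIs, where only 3 of 109 WT and 8 of 212 *Vsir*-/- cells held a UMI. With cells weighted equally the R1 ratio was −0.27, and without barcodes over 3 times the median UMIs it was −0.35; the cause was not tested. The M2-like R2 and neutrophil ratios ranged from −0.94 to −0.69 and from −1.17 to −0.80 over 9 alternative settings.

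Other R2 macrophages had 90.5 and 77.6 CPM of *Myd88*, with an interval of the log2 ratio from −0.70 to 0.24. Outside the 4 clusters, the cluster named non–EM-like CD4+ T cells had 26.3 and 17.4 CPM (−1.02 to −0.17), and the cluster named pDC had 102 and 71.8 CPM (−1.15 to 0.18). In the former, T cell markers summed to 5498 CPM in WT and 399 CPM in *Vsir*-/- barcodes. Over this and the proliferating cluster, barcodes with a CD3, T cell receptor, or *Ptprc* UMI had 29.1 CPM of *Myd88* in WT and 27.3 CPM in *Vsir*-/-. The *Vsir*-/- barcodes without such a UMI had 18.0 CPM, and their part in the ratio was not tested. B cells were at a higher value in the *Vsir*-/- library, 13.5 and 21.0 CPM, within counting error. At equal depth a *Myd88* UMI was present in 11.7% of 409 WT and 7.55% of 159 *Vsir*-/- M2-like R2 cells, with overlapping intervals (8.78% to 15.3% and 3.96% to 12.8%), and in 15.3% of 503 and 7.84% of 153 neutrophils, also with overlapping intervals (12.3% to 18.8% and 4.12% to 13.3%). The shares were 2.75% and 3.77% in R1 and 8.33% and 8.66% in Other R2, where the levels were lower in the *Vsir*-/- library but the shares were not, so no direction is read from these 2 pairs.

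The promoter of *Myd88* is shown because this gene was lower in several clusters, at chr9:119339969-119340268 on the minus strand. The capitals mark a GC box, followed by a gamma-activated site (TTCNNNGAA) that overlaps an interferon response element.
Myd88: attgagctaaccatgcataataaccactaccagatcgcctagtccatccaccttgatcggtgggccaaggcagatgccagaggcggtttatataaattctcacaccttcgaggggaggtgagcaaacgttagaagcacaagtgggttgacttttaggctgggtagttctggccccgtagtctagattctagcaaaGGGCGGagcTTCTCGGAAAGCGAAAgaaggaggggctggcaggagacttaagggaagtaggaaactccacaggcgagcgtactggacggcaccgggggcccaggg
A gamma-activated site was present in 8.47% of the 27025 promoters and an interferon response element in 3.49%, and *Myd88* was the only one of the 4 windows with either. No window matched the string of letters searched for NF-κB, which was in 1.62% of promoters. Other forms of the NF-κB site were not searched, so no window, that of *Tlr2* included, is shown to lack such a site. The motif results are matches of letters, and binding was not measured.

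*Cd14*, the co-receptor that hands lipopolysaccharide to TLR4, was the most abundant of the 8 genes in the 4 clusters and, among these clusters, the one with ratios above counting error in both directions. R1 had 610.1 CPM in WT (424 UMIs) and 378 CPM in *Vsir*-/- cells (606 UMIs), a log2 ratio of −0.69 (95% CI, −0.87 to −0.51). Neutrophils, the cells with the highest level in both libraries, had 1288 and 946 CPM, a log2 ratio of −0.45 (−0.56 to −0.33). Both were thus lower in the *Vsir*-/- library.

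In both R2 clusters *Cd14* was higher in the *Vsir*-/- library. Other R2 had 101 CPM in WT (130 UMIs) and 272 CPM in *Vsir*-/- cells (210 UMIs), a log2 ratio of 1.42 (1.10 to 1.75). M2-like R2 had 408 and 466 CPM, a log2 ratio of 0.19 (0.07 to 0.32), and without cells that held a T cell transcript this ratio was 0.05. The order from neutrophils to Other R2 had no overlapping neighbors in either library, but R1 lay above M2-like R2 in WT and below it in *Vsir*-/- cells.

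At equal depth, a *Cd14* UMI was present in 44.0% of 109 WT and 27.8% of 212 *Vsir*-/- R1 cells, and in 8.89% of 180 WT and 22.0% of 127 *Vsir*-/- Other R2 cells. Neither pair of intervals overlapped (34.5% to 53.9% against 21.9% to 34.4%, and 5.17% to 14.0% against 15.2% to 30.3%). WT non–EM-like CD8+ T cells had 0.455% of 659. Before thinning, 84.5% and 67.9% of R1 cells and 23.9% and 59.5% of Other R2 cells held a UMI. The neutrophil transcript *S100a8*, a sign of RNA from neutrophils, was at 2189 and 53.1 CPM in Other R2 and at 759.8 and 41.2 CPM in R1. Its part in the *Cd14* ratios was not tested.

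B cells, which should hold little *Cd14*, had 3.16 CPM in WT (11 UMIs) and 68.6 CPM in *Vsir*-/- cells (36 UMIs in 88 cells). Only 9 of the 88 cells held a UMI, and 1 of them held 23 of the 36. The macrophage transcript *C1qa* was at 3.16 and 85.8 CPM in the same cells, and its part in this difference was not tested.

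*Cd14* was also the gene with the widest spread over cells within a cluster. Of 456 WT M2-like R2 cells, 201 held no UMI while 61 held 10 or more, with up to 82 UMIs in 1 cell. Among WT neutrophils 123 of 524 held none and 113 held 10 or more. In *Vsir*-/- Other R2 the gene was less uneven, with 53 of 131 cells at 0 and 4 at 10 or more.

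*Ly96*, which encodes MD-2, was higher in *Vsir*-/- R1 macrophages. Its level was 24.5 CPM in WT (17 UMIs in 116 cells) and 46.2 CPM in *Vsir*-/- cells (74 UMIs in 237 cells), a log2 ratio of 0.92 (95% CI, 0.14 to 1.77), and 1 WT cell held 29.4% of the WT UMIs. M2-like R2 had 35.1 and 38.8 CPM, Other R2 25.8 and 29.8 CPM, and neutrophils 25.4 and 27.0 CPM, all with intervals that included 0. At equal depth 1.83% of 109 WT and 5.19% of 212 *Vsir*-/- R1 cells held a UMI, with overlapping intervals. Before thinning the shares were 10.3% and 22.4%. Endothelial markers, at 0 and 899 CPM, and podocyte markers, at 1.44 and 158 CPM, were also higher in these *Vsir*-/- R1 cells, and their part in the *Ly96* ratio was not tested.

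Since TLR4 and MD-2 act as 1 complex, cells holding both transcripts were counted without thinning, and the shares differed beyond counting error in *Vsir*-/- R1 cells. Of the 42 *Vsir*-/- R1 cells with a *Tlr4* UMI, 18 (42.9%; 95% CI, 27.7% to 59.0%) also held a *Ly96* UMI, against 35 of 195 cells without *Tlr4* (17.9%; 12.8% to 24.1%). The cells with *Tlr4* were deeper, with a median of 6893.5 against 5683 UMIs. The parts of depth and of the endothelial transcripts in *Vsir*-/- R1 cells in this difference were not tested. In WT R1, 3 of 17 cells with *Tlr4* held *Ly96*, against 9 of 99 without. In the other 3 clusters the intervals of the 2 shares overlapped in both libraries, for example 33.3% and 30.6% in *Vsir*-/- M2-like R2, 9.68% and 10.8% in WT neutrophils, and 7.69% and 16.0% in WT Other R2. Such a difference was not particular to this pair. In *Vsir*-/- R1, 81.7% of cells with *Tlr2* held *Cd14*, against 59.0% of those without. In WT M2-like R2, 54.8% of cells with *Tlr7* held *Tlr13*, against 32.8%. Neither pair of intervals overlapped, whereas those of some other pairs and clusters did.

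The clusters named non–EM-like CD4+ T cells and proliferating cells of the *Vsir*-/- library held *Tlr4*, *Ly96*, and *Cd14* outside the myeloid cells. In these 2 clusters together, *Tlr4* had 3 UMIs in 1013 WT cells and 132 UMIs in 538 *Vsir*-/- cells, that is, 0.464 and 14.6 CPM. *Ly96* had 18 and 186 UMIs (2.78 and 20.6 CPM), and *Cd14* had 43 and 183 UMIs (6.65 and 20.2 CPM). The names of the clusters did not hold for all of the *Vsir*-/- barcodes, of which 324 of 538 had no UMI of a CD3, T cell receptor, or *Ptprc* gene, against 1 of 1013 in WT.

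These 324 barcodes carried transcripts of kidney cells, and *Tlr4* was at its highest value in those with mural transcripts. The split by marker counts and the lists of mural genes (*Pdgfrb*, *Itga8*, *Des*, *Rgs5*, and *Acta2*) and podocyte genes were chosen after values were seen, so the values are given as a description. The 36 barcodes with at least 5 mural UMIs had *Tlr4* at 37.2 CPM (64 UMIs), *Ly96* at 31.4 CPM, and *Cd14* at 28.5 CPM. The 60 barcodes with at least 5 endothelial and under 5 mural UMIs had 19.1, 22.1, and 16.2 CPM, and the *Tlr4* intervals of the 2 groups overlapped (28.7 to 47.6 and 10.2 to 32.7 CPM). In the 16 mural barcodes under 40000 UMIs, *Tlr4* was at 28.0 CPM (10 UMIs) and *Ly96* at 16.8 CPM (6 UMIs). The 228 others, in which tubule markers summed to 14121 CPM, had *Tlr4* at 1.34 CPM (4 UMIs) but *Ly96* at 12.7 and *Cd14* at 16.1 CPM.

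The *Tlr4* level of the mural group and that of *Vsir*-/- R1 macrophages (31.2 CPM) had overlapping intervals. The 36 barcodes had a median of 43977 UMIs and held endothelial (4803 CPM), tubule (1276 CPM), and podocyte markers (569 CPM) beside the mural ones (1008 CPM). Whether they were more than 1 cell each was not tested. The 214 *Vsir*-/- barcodes with a CD3, T cell receptor, or *Ptprc* UMI also held endothelial markers (2927 CPM) and *Tlr4* (13.9 CPM). The endosomal receptors were nearly absent from the 324 barcodes, with 3 UMIs of *Tlr7*, 1 of *Tlr13*, and 0 of *Tlr9*. With 1 such barcode in the WT library, these values have no WT counterpart.

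**Figure D4:**
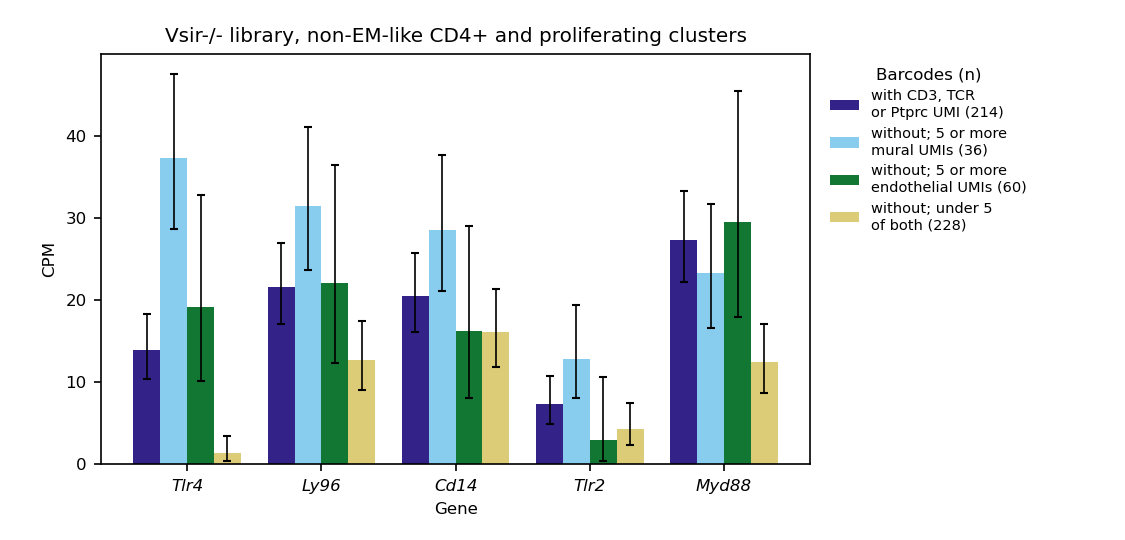
CPM of 5 genes in barcodes of the non–EM-like CD4+ and proliferating clusters of the *Vsir*-/- library, grouped by whether they hold a CD3, T cell receptor, or *Ptprc* UMI and by mural and endothelial UMIs; bars are 95% Poisson intervals. *Tlr4* is at 37.2 CPM in the 36 barcodes with mural UMIs and at 1.34 CPM in the 228 barcodes with few mural and endothelial UMIs.

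Beyond the 8 genes, 59 other genes of the pathway were examined by role, and the ratios of most lay within 2-fold. In R1, 3 of the 50 genes that passed the filter of 20 UMIs were 2-fold or more higher and 2 lower; in M2-like R2, 2 and 2 of 54; in Other R2, 2 and 1 of 49; and in neutrophils, 2 and 9 of 51. These are 6.00% and 4.00%, 3.70% and 3.70%, 4.08% and 2.04%, and 3.92% and 17.6%, beside the shares of all genes given above. Neutrophils were thus the cluster with most pathway genes at lower values, and these included *Tlr1*, *Peli1*, *Ly86*, and *Irf7*.

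Among the adaptors, *Pik3ap1*, which encodes BCAP, a protein that links TLRs to PI3K, had the largest ratio of the pathway in R1 and in Other R2. It was at 24.5 CPM in WT and 146 CPM in *Vsir*-/- R1 cells, a log2 ratio of 2.57 (95% CI, 1.86 to 3.38), and at 23.4 and 245 CPM in Other R2 (3.38; 2.82 to 3.99). M2-like R2 had 11.6 and 69.2 CPM and neutrophils 6.45 and 57.9 CPM. The difference was not limited to myeloid cells, with 13.5 and 57.2 CPM in B cells and 12.8 and 53.3 CPM in NK cells. *Ticam2*, which encodes the TRAM adaptor of TLR4, was at 16.6 and 25.7 CPM in M2-like R2 and at 17.3 and 13.1 CPM in R1.

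Among the other receptors and accessory proteins, *Cd180*, which encodes a TLR4 homolog, was lower in the *Vsir*-/- library in R1 (145 and 81.2 CPM) and in M2-like R2 (79.4 and 46.0 CPM). Its partner *Ly86*, which encodes MD-1, had 993 and 927 CPM in R1 and 170.2 and 107 CPM in Other R2. *Cd36*, a co-receptor of TLR2 for some lipids, was at 7.74 and 61.5 CPM in M2-like R2 (log2 ratio 2.99; 2.42 to 3.59) and at 133 and 215 CPM in Other R2. *Tlr1*, which pairs with TLR2, had 34.5 and 42.5 CPM in R1 and 15.9 and 21.5 CPM in M2-like R2, both within counting error.

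*Ctsb*, *Ctsl*, and *Lgmn*, which encode endosomal proteases that cleave TLR7 and TLR9, were at higher values in *Vsir*-/- R1 macrophages. *Ctsl* and *Lgmn* were named because their R1 ratios were among the largest of the pathway, so they do not stand for their role. The 11 trafficking and accessory genes counted in R1 had a median log2 ratio of 0.13, with 1 gene 2-fold or more higher and 0 lower. *Ctsb* was at 1148 and 1886 CPM, *Ctsl* at 66.2 and 179 CPM, and *Lgmn* at 472 and 818 CPM. In M2-like R2 *Ctsb* was at 967 and 972 CPM, whereas *Ctsl* was at 82.9 and 136 CPM.

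Among kinases and ligases, *Ikbkb*, which encodes an IκB kinase, was at 115 and 68.1 CPM in R1, 231 and 165 CPM in M2-like R2, and 297 and 194 CPM in Other R2. *Peli1*, which encodes a ubiquitin ligase, was at 145 and 78.1 CPM in R1 and 114 and 66.9 CPM in M2-like R2. *Ikbke* was higher in the *Vsir*-/- R2 clusters, at 19.6 and 38.8 CPM in M2-like R2 and 25.8 and 69.9 CPM in Other R2. *Ube2n*, an ubiquitin-conjugating enzyme, stayed within counting error in all 4 clusters.

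The transcription factor *Irf7*, which drives type I interferon genes downstream of TLR7 and TLR9, was lower in the *Vsir*-/- library in both R2 clusters and in neutrophils. It was at 509 and 242 CPM in M2-like R2 (log2 ratio −1.07; −1.23 to −0.92), 263 and 148 CPM in Other R2, and 328 and 149 CPM in neutrophils. In R1 it was at 207 and 229 CPM, within counting error. It was also lower in EM-like CD4+ T cells, at 98.1 and 63.4 CPM (−0.98 to −0.29), and in the cluster named pDC, at 261 and 150 CPM (−1.20 to −0.37). The cluster named non–EM-like CD4+ T cells had 45.3 and 49.2 CPM. The cluster named proliferating cells had more in the *Vsir*-/- library, 57.7 and 94.5 CPM (log2 ratio 0.71, 0.41 to 1.02). In these last 2 clusters 324 of 538 *Vsir*-/- barcodes had no CD3, T cell receptor, or *Ptprc* UMI, and the part of these in the ratios was not tested. *Nfkb1* was at 153 and 83.7 CPM in R1 and 433 and 269 CPM in Other R2. *Fos* was at 1143 and 1701 CPM and *Jun* at 1349.8 and 2248 CPM in R1, and in neutrophils both were lower, at 1663 and 1001 CPM and 277 and 178 CPM. *Fos* was named among the pathway genes with the largest ratios in Other R2. The part of the digestion at 37°C in these levels was not tested.

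The inhibitors split by gene. *Nfkbia*, which encodes IκBα, was at 512 and 857 CPM in M2-like R2 and at 1079.8 and 1921 CPM in neutrophils. *Tnfaip3*, which encodes A20, was at 50.3 and 98.5 CPM in M2-like R2 and 82.7 and 160.5 CPM in Other R2, but at 53.2 and 35.6 CPM in R1. *Cyld*, a deubiquitinase, was at 105 and 46.2 CPM in R1 and 68.7 and 41.2 CPM in M2-like R2.

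**Figure D5:**
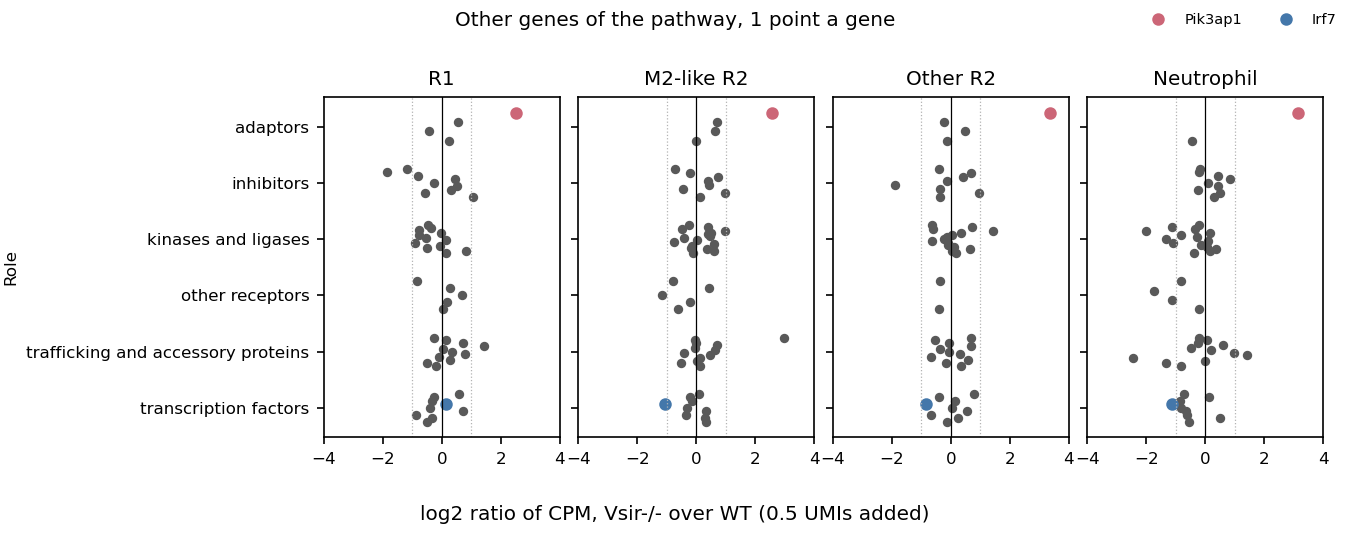
Log2 ratio of CPM, *Vsir*-/- over WT, of the other pathway genes that passed the filter of 20 UMIs (1 point a gene), by role (rows) in 4 clusters; dotted lines mark 2-fold. *Pik3ap1* lies above 2-fold in all 4 clusters, and *Irf7* lies below 0 in the R2 clusters and neutrophils.

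Across the 13 WT clusters with at least 50 cells, the genes most like each of the 8 in their pattern of levels were named by Pearson's r of log2(CPM + 10), with the r over the 11 such *Vsir*-/- clusters beside it. The points share a library and the few myeloid clusters set most of each value. For *Tlr2* the closest were *I830077J02Rik* (r = 0.99 in WT, 0.92 in *Vsir*-/-), *Il13ra1* (0.99, 0.89), and *Rbm47* (0.99, 0.24). For *Tlr4* they were *Clec5a* (0.95, 0.66), *Gm34084* (0.95, 0.59), and *Hlx* (0.95, 0.83).

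For the endosomal receptors, *Tlr7* was closest to *Erlin1* (0.97, 0.52), *Rassf4* (0.97, 0.90), and *Tifa* (0.97, 0.83). *Tlr13* was closest to *Nfam1* (0.99, 0.97), *Sirpa* (0.99, 0.92), and *Lst1* (0.99, 0.98). The r of the genes closest to *Tlr13* was high in both libraries, whereas that of *Erlin1* with *Tlr7* was lower in *Vsir*-/- clusters. Genes were ranked in WT only. *Tlr9*, with 28 UMIs, was closest to *Tmcc3* (0.95, 0.44), *Cxcl16* (0.92, 0.76), and *C1qb* (0.92, 0.72).

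*Myd88* was closest to *Ier3* (0.95, 0.64), *Vill* (0.95, 0.65), and *Rab32* (0.95, 0.91). *Cd14* was closest to *Gm34084* (0.99, 0.90), *Ptafr* (0.98, 0.97), and *Anxa3* (0.97, 0.58). *Ly96* was closest to *Lamp2* (0.97, 0.82), *Ifi204* (0.96, 0.79), and *Clec12a* (0.95, 0.53). The names depended on the measure, and at most 2 of the 3 genes of any list were named again with a pseudocount of 1 or with Spearman's rho. That highest number was reached for *Tlr13* alone, with a pseudocount of 1. For *Tlr2*, *Tlr4*, and *Myd88*, 0 of the 3 genes were named again with either measure.

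Among the 8 genes themselves, *Tlr2* and *Tlr13* had the pattern most alike over clusters, with r = 0.98 in both libraries. *Tlr2* and *Cd14* had r = 0.96 in both. *Tlr4* and *Ly96* had r = 0.86 in WT and 0.83 in *Vsir*-/- clusters, whereas *Tlr4* and *Myd88* had 0.75 and 0.29.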

How the data were processed

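Kidney cells of 1 WT and 1 *Vsir*-/- library were analyzed. The authors deposited raw UMI counts for each cell in a sparse matrix, with no scaling. The authors' table of cells names library and cluster and gives a mitochondrial percent, deposited as a percent of UMIs and used here only for a filter of 5%. The submitters' processing notes list Cell Ranger 3.1.0, R 4.0.3, Seurat 3.2.3, and mm9; how doublets were treated is not given in the sources used here, and none were removed here. The coordinate table was not used. UMIs were summed per cluster and library. CPM, exact Poisson and Clopper-Pearson intervals, and exact conditional intervals of ratios were computed, and medians and counts past 2-fold used 0.5 added UMIs. Thinning drew 1000 UMIs a cell and left out 167 WT and 78 *Vsir*-/- cells. The genes, lists, and tests were chosen with earlier results of these data known. Named genes were the 8; the 2 most abundant of each role of the pathway list; the 3 genes most like each of the 8; and, per macrophage cluster, up to 3 pathway genes with the largest and smallest ratios at 100 or more UMIs. *Tlr3* and the mural and podocyte genes fall outside this rule and were named after their values were seen. Of 60 pathway genes listed, 59 were found. The ratio step was tested on simulated data. Alternatives changed the cells kept, depth, weighting, denominator, and filter. Python 3.11.15, numpy 2.4.6, scipy 1.17.1, pandas 2.3.3, and matplotlib 3.10.9 were used.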

Additional observations from a re-analysis of the deposited data

Results flagged for a closer look

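Among R1, M2-like R2, and Other R2 macrophages and neutrophils, *Cd14* was the gene whose ratio took opposite directions between clusters, with counting intervals on both sides of 0. With the clusters named proliferating cells and non–EM-like CD4+ T cells included, *Tlr4* did so too. Its log2 ratio was −1.20 in neutrophils against 4.12 and 5.74 in these 2 clusters, respectively. Of their 538 *Vsir*-/- barcodes, 324 had no UMI of a CD3, T cell receptor, or *Ptprc* gene, so these 2 ratios are not ratios in T cells alone. For *Cd14*, the log2 ratio of *Vsir*-/- to WT in Other R2 macrophages exceeded that in R1 by 2.11 and that in neutrophils by 1.87. The ratio in M2-like R2 exceeded that in R1 by 0.88 and that in neutrophils by 0.64. With 1 library per genotype, these differences between clusters were not tested.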

How the results depend on the processing

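No paired analysis was possible because each genotype has 1 library. A median was taken to depend on a setting when it changed by more than 0.1 on the log2 scale, a tolerance set for this work. The median log2 ratio of the genes in R1 (−0.41) became −0.30 with cells weighted equally and −0.11 without barcodes over 3 times the median UMIs. In M2-like R2 (0.15) it became −0.16 without cells with a T cell transcript, −0.053 without cells with a B cell transcript, and −0.046 with all genes of at least 1 UMI. In Other R2 (−0.12) it became 0.076 in thinned cells, −0.38 without cells with a B cell transcript, and 0.047 with at least 50 UMIs a gene. In neutrophils (−0.18) it became −1.12 in thinned cells, −0.38 with equal weights, −0.34 without cells with a T cell transcript, −0.36 without barcodes over 3 times the median, −0.31 with at least 50 UMIs a gene, and −0.31 with all genes of at least 1 UMI. The cause of these changes was not tested. The other 26 medians stayed within the tolerance. Of the 251 single-gene ratios, 235 stayed within their main intervals, 15 left them, and 1 (*Myd88* in R1, 0.46 in thinned cells) turned direction. A turn of direction was counted only where the main interval excluded 0. Some ratios whose main interval included 0 also changed sign. In thinned cells, *Ly96* in neutrophils went from 0.09 to −1.45 and *Tlr4* in Other R2 from −0.16 to 0.50. The settings that left out cells with a B cell transcript or barcodes of high UMIs were chosen after the data were seen. Depth limits *Tlr9* in all clusters and *Tlr4* and *Ly96* at equal depth, where few cells held a UMI.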

Other observations

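*Tlr3*, the endosomal receptor for double-stranded RNA, which does not signal through MYD88, had another distribution than the 8 genes. Neutrophils of both libraries held 0 UMIs of it. In R1 macrophages it had 12 UMIs in WT and 32 in *Vsir*-/- cells, a log2 ratio of 0.21 (95% CI, −0.79 to 1.30). In the cluster named pDC it had 1 UMI in 21 WT cells and 76 UMIs (64.2 CPM) in 86 *Vsir*-/- cells, beside *Xcr1*, a marker of cross-presenting dendritic cells, at 11.3 and 190 CPM. In the *Vsir*-/- barcodes without a CD3, T cell receptor, or *Ptprc* UMI, *Tlr3* was at 36.8 CPM in the 60 with endothelial transcripts, at 22.7 CPM in the 36 with mural transcripts, and at 11.4 CPM in the 228 others.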
